A study of Mus musculus with 13 samples.

Results

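The genes described here encode the machinery that moves proteins between the endoplasmic reticulum (ER) and the Golgi apparatus. They are 42 named genes, chosen by their known role but with earlier results of these data known. Of these, 13 belong to the COPII coat and its assembly and 9 to the COPI coat, and 3 are KDEL retrieval receptors, 13 cargo receptors and 4 SNAREs. All 42 were listed in both deposited gene tables, and all 42 passed the limit of a mean TPM (the transcript level scaled for length to a fixed library total) of at least 2, so that they are 42 of 10432 analysed genes in mouse embryonic fibroblasts (MEFs) and of 10117 in NIH3T3 cells, an established mouse fibroblast line. Ribosome footprint profiling sequences the stretches of mRNA covered by ribosomes, and the TPM of a gene is then its relative rate of protein synthesis within a library. PERK WT MEFs and MEFs without PERK (PERK -/-), the ER stress kinase that phosphorylates eIF2α, were left untreated or given 1 µM thapsigargin (Tg) for 1, 2, 5 or 8 h. NIH3T3 cells, labelled as WT, were left untreated or given 0.2 µM Tg for 2 or 7 h. Tg blocks the calcium pump of the ER and so causes ER stress. The samples share no other treatment in the labels, and cycloheximide was left out of both cells and buffers. Each of the 13 conditions is 1 library, so no value has a replicate check and no test was run. How many clones or cultures stand behind each genotype is not given in the sources used here. Intervals of single genes cover counting error only. TPM is relative within a library, so a change in overall translation is not seen in it, and mRNA levels were not analysed here. In pooled cells, fewer cells that express a gene and fewer footprints per cell cannot be told apart. The MEF and NIH3T3 tables were made separately, so changes are taken only within a table.

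Total expected counts per library ran from 2525029 (PERK WT, 2 h) to 14799515 (PERK -/-, 2 h), and the median member held 293 to 1883 counts. The 7 fibroblast markers summed to 5438 to 6324 TPM in PERK WT, 4132 to 6637 in PERK -/- and 3448 to 4935 in NIH3T3 libraries, where Col3a1 stayed at 0.640 to 1.67 TPM. The 8 markers of epithelial, blood, endothelial and muscle cells summed to at most 6.49 TPM in any library. The median log2 change of the fibroblast markers under Tg ran from -1.37 (PERK -/-, 2 h) to -0.13 (PERK WT, 8 h), and its part in the changes below was not tested. Eif2ak3, which encodes PERK, had a lower CPM (its counts scaled to a fixed library total) in PERK -/- than in PERK WT at every matched time, 10.99 against 21.3 untreated and 19.1 against 32.7 at 8 h. Footprints outside the deleted part of the gene would still be counted, so this is a weak check of the genotype. Ddit3, the PERK-dependent stress gene that encodes CHOP, stood at 13.8 TPM in untreated and 579.8 TPM in 8 h PERK WT cells, but at 6.91 and 13.3 TPM in PERK -/- cells.

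Secretory and membrane proteins leave the ER in vesicles coated by COPII. The GTPase Sar1, loaded by the exchange factor Sec12 (Preb), recruits the inner coat of Sec23 and Sec24, and Sec24 picks up cargo. The outer coat of Sec13 and Sec31 then bends the membrane, at ER exit sites organised by Sec16 and, for large cargo such as procollagen, by TANGO1 (Mia3). COPI, a coat of 7 subunits recruited by the GTPase Arf1, carries vesicles back from the Golgi. KDEL receptors use this return path to bring escaped ER chaperones home. Cargo receptors of the p24 (Tmed), lectin (Lman) and Erv (Surf4, Ergic) kinds connect soluble cargo to the coats, and SNAREs fuse the arriving vesicles. The unfolded protein response, which ER stress sets off, is known to raise many genes of the secretory pathway through the factors XBP1 and ATF6.

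A short promoter element links some of these genes. The sequence TGACGTGG is the core of the unfolded protein response element that XBP1 and ATF6 can bind. It was searched on both strands in the RefSeq promoters of GRCm38.p6, from 250 bases before to 50 bases after each start site. A promoter was listed for 37 of the 42 members (Arcn1, Kdelr2, Tmed2, Tmed7 and Lman1 had no entry), and 6 of the 37, or 16.2%, held the core. The share was 0.714% of all 27025 listed genes and 1.13% of the 8045 listed genes that were analysed in MEFs. The shorter ACGTG, which lies within the core, was found in 24 of 37 members, 64.9%, against 30.7% of analysed genes. The ER stress element, CCAAT and CCACG with 9 bases between them, was in 0 of 37 members and in 0.186% of analysed genes. The stretches around the core are shown because the 6 genes include the COPII subunit and the SNARE with the largest changes in PERK WT cells. Each is written 5′ to 3′ on the strand of the gene, with the core in capitals, as CCACGTCA where it lies on the other strand.
Sec24d, chr3:123267444-123267503, plus strand: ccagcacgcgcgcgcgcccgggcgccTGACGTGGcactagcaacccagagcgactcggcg
Stx5a, chr19:8741407-8741473, plus strand: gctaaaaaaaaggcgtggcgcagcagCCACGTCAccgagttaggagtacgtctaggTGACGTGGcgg
Kdelr3, chr15:79516352-79516411, plus strand: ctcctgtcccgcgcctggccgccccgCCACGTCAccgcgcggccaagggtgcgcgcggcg
Sec23a, chr12:59011978-59012037, minus strand: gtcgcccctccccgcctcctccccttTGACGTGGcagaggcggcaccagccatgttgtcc
Copb1, chr7:114254675-114254734, minus strand: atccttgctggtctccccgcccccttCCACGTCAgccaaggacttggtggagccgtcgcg
Copb2, chr9:98563698-98563757, plus strand: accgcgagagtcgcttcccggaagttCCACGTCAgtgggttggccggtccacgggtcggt
In Sec24d, Copb1, Copb2 and Kdelr3 the core began 26, 28, 7 and 30 bases before the start site, in Sec23a it began at base 7 of the transcript, and Stx5a held it at bases 10 and 40. Start sites in that table can differ from the gene boundaries given below. A match is a description of the letters and not a measured site.

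Changes are given as log2 ratios of TPM against the untreated library of the same cells, with TPM values under 4 raised to 4. Square brackets after a change hold the 95% interval of the log2 change in counts per library total. A gene is said to differ by its log2 change against untreated. A gene was counted as higher or lower when it differed at least 1.5-fold, a log2 change of 0.58. Over the 42 members, the median change in PERK WT cells was 0.12 (95% interval -0.10 to 0.28) at 1 h, 0.08 at 2 h, 0.34 (95% interval -0.03 to 0.58) at 5 h and 0.32 (95% interval -0.04 to 0.55) at 8 h. In PERK -/- cells it was -0.04, -0.11, 0.26 (95% interval 0.09 to 0.37) and 0.46 (95% interval 0.33 to 0.63). NIH3T3 cells had a median of -0.22 (95% interval -0.33 to -0.19) at 2 h and 0.16 (95% interval -0.09 to 0.31) at 7 h. The median of all analysed genes lay between -0.13 (NIH3T3, 2 h) and 0.04 (PERK -/-, 8 h). The member median thus lay above that of all genes at the late times. Its interval lay above the median of all genes in PERK -/- cells at 5 and 8 h. In PERK WT cells at 5 and 8 h and in NIH3T3 cells at 7 h the interval spanned it. In NIH3T3 cells at 2 h the member interval lay below the median of all genes. There 5 of 42 members were above their untreated level, as were 3548 of 10117 analysed genes. In PERK -/- cells at 8 h 40 of 42 members were above their untreated level, as were 5599 of 10432 analysed genes.

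Early on, few members passed 1.5-fold. In PERK WT cells 3 of 42 members were higher at 1 h, where 12.8% of all genes were, and 0 were lower, against 10.2% of all genes. At 2 h 5 members were higher and 1 lower, against 15.3% and 12.3% of all genes. In PERK -/- cells 0 members were higher and 3 lower at 1 h (3.76% and 13.4% of all genes), and 1 was higher and 1 lower at 2 h (3.57% and 18.8%). In NIH3T3 cells at 2 h 0 members were higher and 3 lower, where 12% and 18.2% of all genes were. These early shares of members were below the background in each direction. The background was not matched to the members for level or counts, here or at the late times. All genes also varied more than members between neighbouring times. Between the 2 and 1 h PERK WT libraries 15.7% of all genes but 0 of 42 members differed 1.5-fold. The part of level in these shares was not tested.

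At the late times the counts leaned upwards. In PERK WT cells 13 of 42 members were higher at 5 h and 13 at 8 h, or 30.95%, against 16.7% and 17.8% of all genes. The 13 members were the same at both times, and 1 and 0 were lower (11.6% and 12% of all genes). PERK -/- cells had 10 higher and 1 lower at 5 h (10.6% and 12.8% of all genes), and 16 higher and 0 lower at 8 h (12.5% and 8.22%). The 16 members are 38.1% of the 42, though counts scaled by TMM factors put 10 members past the same fold. In NIH3T3 cells at 7 h 6 members were higher and 3 lower, against 16.7% and 20.1% of all genes, which is near the background upwards and below it downwards. Scaling the counts by TMM factors, which set the typical gene to no change, moved the share of higher among all genes past 1.5-fold by over 10 percentage points in 4 of the 10 comparisons. It gave 7.88% of all genes higher and 13.3% lower in PERK -/- cells at 1 h, 9.56% of all genes higher and 16.8% lower at 2 h and 12.4% of all genes higher and 12.6% lower at 8 h, and 19.5% of all genes higher and 12.5% lower in NIH3T3 cells at 2 h, where it also moved the median of all genes from -0.13 to -0.01. On that scale 11 members were higher and 1 lower in NIH3T3 cells at 7 h, against 21.4% of all genes higher and 22.6% lower, and 11 were higher in PERK WT cells at 8 h.

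Of the 13 members higher in PERK WT and the 16 higher in PERK -/- cells at 8 h, 9 were common to both, 69.2% of the PERK WT list and 56.2% of the PERK -/- list. Over all analysed genes the 440 common genes were 23.7% and 33.7% of all genes higher in PERK WT and in PERK -/- cells. The 9 members were the COPII genes Sec23a, Sec23b, Sec24d and Preb, the cargo receptors Tmed3, Tmed9, Surf4 and Mcfd2, and the SNARE Stx5a. Of the 9, only Sec23b, Preb and Surf4 were also higher in NIH3T3 cells at 7 h, where 34.5% of all genes common to both MEF lists were, so this last share is near the background. Sec16a, Sec31a, Copa and Cope made up the rest in PERK WT cells, and the 3 KDEL receptors, Mia3, Copg1, Tmed2 and Bet1 the rest in PERK -/- cells.

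**Figure D1:**
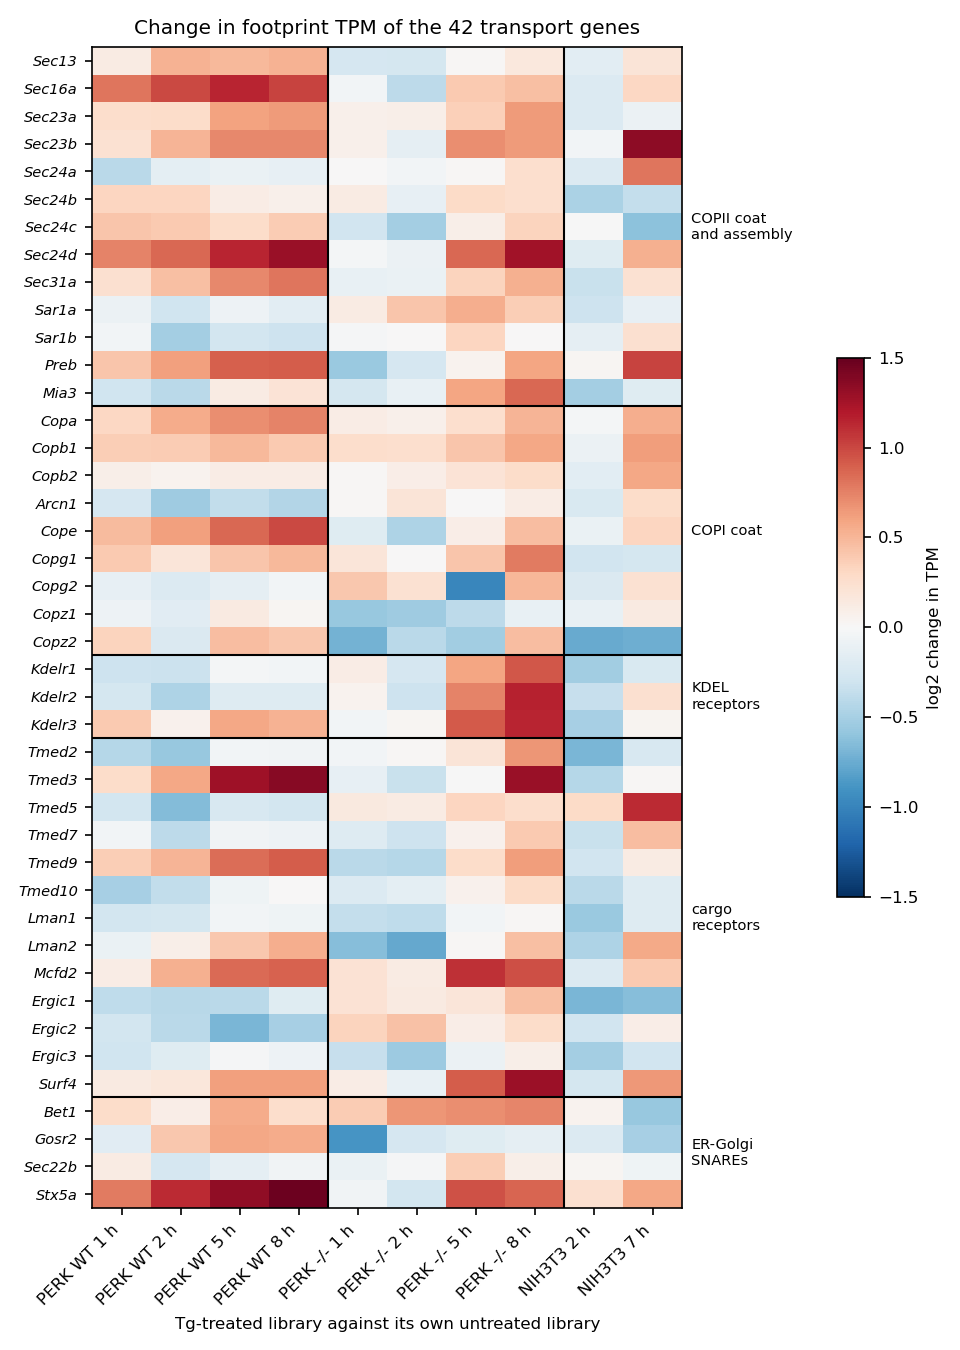
Log2 change in footprint TPM of the 42 members (rows, by subgroup) in each Tg-treated library against the untreated library of the same cells (columns), with red for higher and blue for lower. The late PERK WT columns are red in Sec16a, Sec24d, Tmed3 and Stx5a, and the 3 KDEL receptors are red in the 5 and 8 h PERK -/- columns, from 0.59 to 1.15.

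The COPII coat had the highest subgroup median in PERK WT cells at 2 h and 8 h, with 0.25, 0.39, 0.49 and 0.53 over 1, 2, 5 and 8 h, and 6 of its 13 genes were higher at 8 h. Its medians in PERK -/- cells were -0.03, -0.11, 0.33 and 0.45 (95% interval 0.25 to 0.64), and 5 genes were higher at 8 h. The NIH3T3 medians were -0.20 and 0.23.

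Sec24d, a cargo-binding subunit of the inner coat that lies on chromosome 3, 123267455 to 123365641 (GRCm38), stood at 53.6 TPM untreated and 89.7, 97.1, 118 and 132 TPM after 1, 2, 5 and 8 h in PERK WT cells. It stood at 61.5 TPM untreated and 60.03, 58.02, 112 and 148 TPM after 1, 2, 5 and 8 h in PERK -/- cells and at 106 TPM untreated and 93.3 and 154 TPM after 2 and 7 h in NIH3T3 cells. PERK WT cells were above their untreated level from 1 h on, while PERK -/- cells stayed within 4 TPM of theirs until 2 h and then reached a like level. The change at 8 h was 1.30 [1.23 to 1.38] in PERK WT and 1.26 [1.16 to 1.35] in PERK -/- cells, and 0.54 [0.47 to 0.60] at 7 h in NIH3T3 cells. Its paralogs had smaller changes in MEFs. Sec24a, Sec24b and Sec24c differed by -0.12, 0.08 and 0.38 in PERK WT and by 0.25, 0.25 and 0.33 in PERK -/- cells at 8 h. Sec24d therefore made up 37.6% of the summed Sec24 TPM in untreated and 57.4% in 8 h PERK WT cells, and 38.8% and 55.6% in PERK -/- cells. In NIH3T3 cells, where Sec24d already held 57.1% untreated and 64.8% at 7 h, Sec24a was higher (0.80 [0.46 to 0.72]) and Sec24c lower (-0.61 [-0.82 to -0.51]).

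Sec23 is the partner of Sec24 and the GTPase-activating protein of Sar1. Sec23b stood at 60.8 TPM untreated and 71.05, 86.8, 100.1 and 101 TPM after 1, 2, 5 and 8 h in PERK WT, at 68.2 TPM untreated and 72.1, 62.4, 111 and 106 TPM after 1, 2, 5 and 8 h in PERK -/- and at 56.5 TPM untreated and 55.1 and 144 TPM after 2 and 7 h in NIH3T3 cells. The NIH3T3 value at 7 h is a change of 1.35 [1.24 to 1.43], while Sec23a differed there by -0.09 [-0.20 to 0.02], so the Sec23b share of the 2 paralogs was 43.4% untreated and 67.5% at 7 h. In MEFs the paralogs had like changes, of 0.64 and 0.73 in PERK WT and by 0.64 and 0.64 in PERK -/- cells at 8 h, and the Sec23b share was 47.4% to 57.03% in all 10 MEF libraries.

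Sec16a, the scaffold of ER exit sites, was among the lowest members in level. It stood at 8.12 TPM untreated and 14.2, 16.1, 17.9 and 16.4 TPM after 1, 2, 5 and 8 h in PERK WT and at 12.3 TPM untreated and 11.96, 9.33, 16.2 and 16.8 TPM after 1, 2, 5 and 8 h in PERK -/- cells. All 4 treated PERK WT libraries lay above the untreated one, and the change at 5 h was 1.14 [0.97 to 1.27]. The 2 h library of PERK -/- cells lay below the untreated one, with -0.40 [-0.41 to -0.11], and the 8 h change was 0.45 [0.32 to 0.63]. NIH3T3 cells had 11.5 TPM untreated and 9.99 and 14.3 TPM after 2 and 7 h.

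Preb, the exchange factor that loads Sar1, stood at 30.4 TPM untreated and 40.6, 46.7, 56.7 and 57.2 TPM after 1, 2, 5 and 8 h in PERK WT, at 47.4 TPM untreated and 32.3, 39.9, 49.3 and 71.2 TPM after 1, 2, 5 and 8 h in PERK -/- and at 43.6 TPM untreated and 44.6 and 87.96 TPM after 2 and 7 h in NIH3T3 cells. Its late changes were 0.91 [0.72 to 1.06], 0.59 [0.43 to 0.80] and 1.01 [0.76 to 1.08]. Sar1 itself did not follow Preb. Sar1a and Sar1b differed by -0.16 [-0.27 to -0.05] and -0.31 [-0.47 to -0.15] in PERK WT cells at 8 h, and by 0.37 [0.24 to 0.48] and 0.01 [-0.17 to 0.18] in PERK -/- cells. Sar1a made up 64.7% to 71.3% of the summed Sar1 TPM in MEFs and 52.6% to 58.8% in NIH3T3 cells.

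The outer coat subunit Sec31a differed by 0.80 [0.76 to 0.88] in PERK WT and by 0.54 [0.46 to 0.61] in PERK -/- cells at 8 h, and its partner Sec13 by 0.53 [0.45 to 0.61] and 0.16 [0.05 to 0.25]. Sec13 is also a subunit of the nuclear pore and of the GATOR complex. The summed Sec24 TPM was 1.07 to 1.43 times the summed Sec23 TPM over the 13 libraries, and Sec13 was 1.56 to 2.39 times Sec31a, with the lowest ratio of Sec13 to Sec31a in each MEF genotype at 8 h. Mia3, which packs procollagen into COPII carriers, stood at 20.2 TPM untreated and 16.5, 15.3, 21.98 and 23.4 TPM after 1, 2, 5 and 8 h in PERK WT and at 18.04 TPM untreated and 15, 16.7, 27.1 and 32.7 TPM after 1, 2, 5 and 8 h in PERK -/- cells, a change at 8 h of 0.21 [0.11 to 0.32] against 0.86 [0.72 to 0.98].

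COPI subunits had unlike changes under Tg. The 9 genes had medians of 0.31, 0.05, 0.41 and 0.39 in PERK WT, of 0.02, 0.07, 0.10 and 0.47 in PERK -/- and of -0.16 and 0.28 in NIH3T3 cells. At 8 h they ran from -0.44 to 0.99 in PERK WT cells. They ran from -0.97 to 0.42 in PERK -/- cells at 5 h and from -0.73 to 0.63 in NIH3T3 cells at 7 h. Coatomer is known to assemble as a complex with equal numbers of each subunit. The levels of its positions lay closer together in treated than in untreated PERK WT cells, as given below.

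Cope, the ε subunit, stood at 90.5 TPM untreated and 126, 139, 164 and 180.2 TPM after 1, 2, 5 and 8 h in PERK WT and at 117 TPM untreated and 103, 84.8, 125 and 161 TPM after 1, 2, 5 and 8 h in PERK -/- cells. Arcn1, the δ subunit, stood at 198 TPM untreated and 167, 137, 154 and 146 TPM after 1, 2, 5 and 8 h in PERK WT and at 229 TPM untreated and 233, 262, 229.8 and 248 TPM after 1, 2, 5 and 8 h in PERK -/- cells. Cope thus lay above its untreated level and Arcn1 below it in all 4 treated PERK WT libraries, and in the PERK -/- library of 2 h the order was the opposite. The changes at 8 h in PERK WT cells were 0.99 [0.88 to 1.11] and -0.44 [-0.51 to -0.36]. Copa, the α subunit, stood at 124 TPM untreated and 154, 183, 202 and 208 TPM after 1, 2, 5 and 8 h in PERK WT cells, a change at 8 h of 0.74 [0.69 to 0.79], with 0.50 in PERK -/- and 0.54 in NIH3T3 cells at 7 h. Copb1 (β) and Copb2 (β′) differed by 0.39 and 0.11 in PERK WT cells, by 0.58 and 0.28 in PERK -/- cells at 8 h and by 0.63 and 0.58 in NIH3T3 cells.

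The γ and ζ subunits have 2 paralogs each. Copg1 stood at 131 TPM untreated and 171, 148, 174 and 183 TPM after 1, 2, 5 and 8 h in PERK WT, at 153 TPM untreated and 174, 154, 204 and 262 TPM after 1, 2, 5 and 8 h in PERK -/- and at 191 TPM untreated and 156 and 159.6 TPM after 2 and 7 h in NIH3T3 cells. Its TPM and counts parted: the 8 h change in PERK -/- cells was 0.78 [0.43 to 0.57], and the 7 h change in NIH3T3 cells was -0.26 [0.06 to 0.21], of opposite sign. Copg2 stood at 12.3 TPM untreated and 11.3, 10.7, 11.2 and 11.98 TPM after 1, 2, 5 and 8 h in PERK WT and at 12.8 TPM untreated and 17.04, 15.03, 6.54 and 18.2 TPM after 1, 2, 5 and 8 h in PERK -/- cells, where the 5 h library alone was low (-0.97 [-1.24 to -0.63]) and the 8 h library was high (0.50 [0.25 to 0.73]). It stood at 39.95 TPM untreated and 34.5 and 46.8 TPM after 2 and 7 h in NIH3T3 cells. Copg1 made up 91.1% to 96.9% of the summed γ TPM in MEFs and 77.3% to 82.7% in NIH3T3 cells. Copz1 stood at 176 TPM untreated and 168, 157, 193 and 179.7 TPM after 1, 2, 5 and 8 h in PERK WT and at 231 TPM untreated and 155, 159.9, 176 and 213 TPM after 1, 2, 5 and 8 h in PERK -/- cells, where every treated library lay below the untreated one, and it made up 80.8% to 93.1% of the summed ζ TPM over all 13 libraries. Copz2 stood at 22.4 TPM untreated and 28.3, 19.3, 30.9 and 29.5 TPM after 1, 2, 5 and 8 h in PERK WT, at 36.7 TPM untreated and 22.4, 27.8, 25.5 and 50.7 TPM after 1, 2, 5 and 8 h in PERK -/- and at 37.97 TPM untreated and 22.4 and 22.9 TPM after 2 and 7 h in NIH3T3 cells, on as few as 28 counts.

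With paralogs summed, the 7 COPI positions spanned 87.4 to 199 TPM in untreated PERK WT cells, a ratio of 2.27, and 114 to 209 TPM at 8 h, a ratio of 1.83. The coefficient of variation over the 7 positions was 32.1% untreated and 15.9% to 20.3% in the treated PERK WT libraries. In PERK -/- cells it was 33.5% untreated and 24.9, 32.6, 20.01 and 21.4% after 1, 2, 5 and 8 h. The 7 positions lay further apart in NIH3T3 cells, at 45.4, 44.2 and 34.3% in the untreated, 2 h and 7 h libraries.

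**Figure D2:**
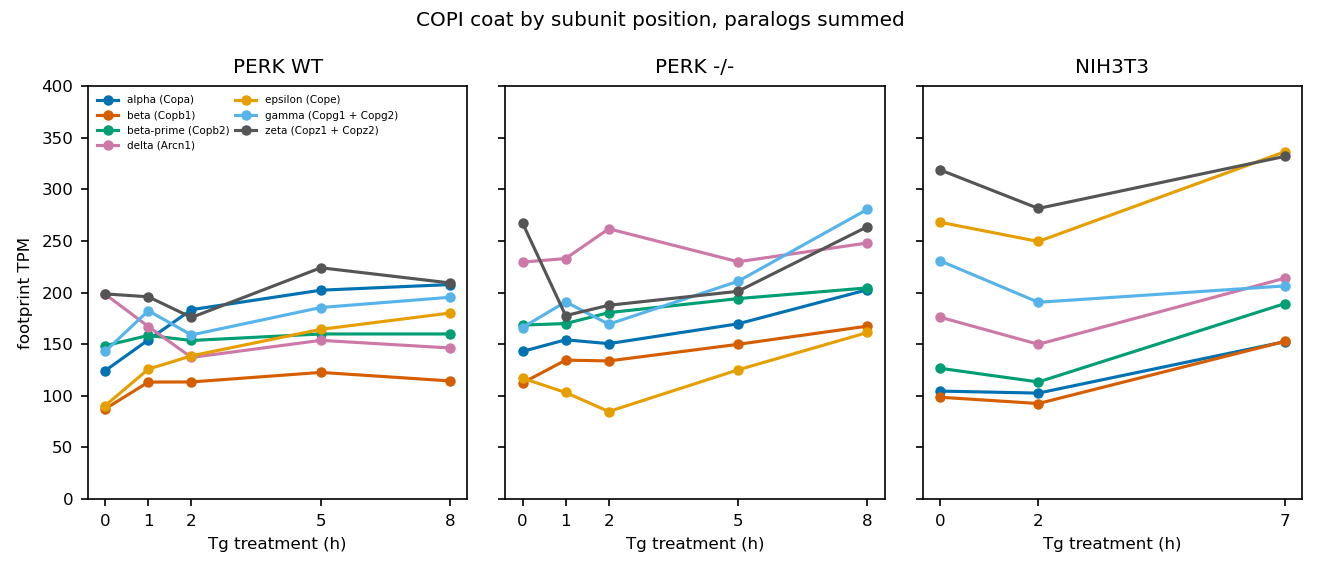
Footprint TPM (y axis) of the 7 subunit positions of the COPI coat, with paralogs summed, against hours of Tg (x axis) in PERK WT, PERK -/- and NIH3T3 libraries, 1 library per point. In PERK WT cells ε (Cope) stands at 90.5 TPM untreated and 180.2 TPM at 8 h, δ (Arcn1) at 198 and 146 TPM, and the 7 lines lie closer together in the treated libraries.

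The KDEL receptors showed the widest gap between the genotypes of the 5 subgroups at 5 and 8 h. They bind the KDEL tail of ER chaperones in the Golgi and ride COPI vesicles back. Their median change was -0.26, -0.32, -0.03 and -0.04 in PERK WT cells and 0.05, -0.26, 0.74 and 1.14 in PERK -/- cells over 1, 2, 5 and 8 h. All 3 were at least 1.5-fold higher in PERK -/- cells at 5 and 8 h, and 0 of 3 in PERK WT or NIH3T3 cells at any time. At 5 h this split is narrow for 2 of them. Kdelr3 in PERK WT cells was just short of the limit (1.498-fold) and Kdelr1 in PERK -/- cells just past it (1.504-fold).

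Kdelr2 (chromosome 5, 143403838 to 143421901, GRCm38) was by far the most abundant in TPM. It stood at 1109.6 TPM untreated and 925, 803, 972 and 969 TPM after 1, 2, 5 and 8 h in PERK WT cells, with every treated library below the untreated one. PERK -/- cells had 931 TPM untreated and 967, 753, 1558 and 2073 TPM after 1, 2, 5 and 8 h, so the 5 and 8 h libraries lay above all PERK WT libraries. The changes at 8 h were -0.20 [-0.24 to -0.15] in PERK WT and 1.15 [1.09 to 1.20] in PERK -/- cells, the latter 2.23 times the untreated level. NIH3T3 cells had 894 TPM untreated and 701 and 1055 TPM after 2 and 7 h, a change at 7 h of 0.24 [0.18 to 0.30].

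Kdelr1 (chromosome 7, 45872772 to 45883732) stood at 238 TPM untreated and 192, 191, 234 and 232 TPM after 1, 2, 5 and 8 h in PERK WT and at 299 TPM untreated and 323, 250.4, 450.0 and 572 TPM after 1, 2, 5 and 8 h in PERK -/- cells. At 1 h PERK WT cells lay below and PERK -/- cells above their untreated level, at 2 h both lay below, and the gap was widest at 8 h. The 8 h changes were -0.04 [-0.14 to 0.06] and 0.94 [0.83 to 1.03]. In NIH3T3 cells it stood at 149.7 TPM untreated and 104 and 128 TPM after 2 and 7 h, with both treated libraries below the untreated one. Kdelr3 (chromosome 15, 79516411 to 79527739), the least abundant in MEFs, stood at 85.7 TPM untreated and 112, 89.9, 128 and 123 TPM after 1, 2, 5 and 8 h in PERK WT and at 118 TPM untreated and 115, 120.3, 224 and 261 TPM after 1, 2, 5 and 8 h in PERK -/- cells, with 8 h changes of 0.52 [0.37 to 0.67] and 1.14 [0.98 to 1.29]. It was the only KDEL receptor above its untreated level in the late PERK WT libraries. NIH3T3 cells had 173 TPM untreated and 122 and 178 TPM after 2 and 7 h.

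Summed over the 3, KDEL receptors took 1433 and 1323 TPM in untreated and 8 h PERK WT cells and 1349 and 2906 TPM in PERK -/- cells. Of this sum Kdelr2 held 67.01% to 77.4% and Kdelr1 15.6% to 23.01% in all MEF libraries. Hspa5, the KDEL-tailed chaperone BiP, went from 1357 to 7149 TPM in PERK WT and from 1646 to 4376 TPM in PERK -/- cells between untreated and 8 h.

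**Figure D3:**
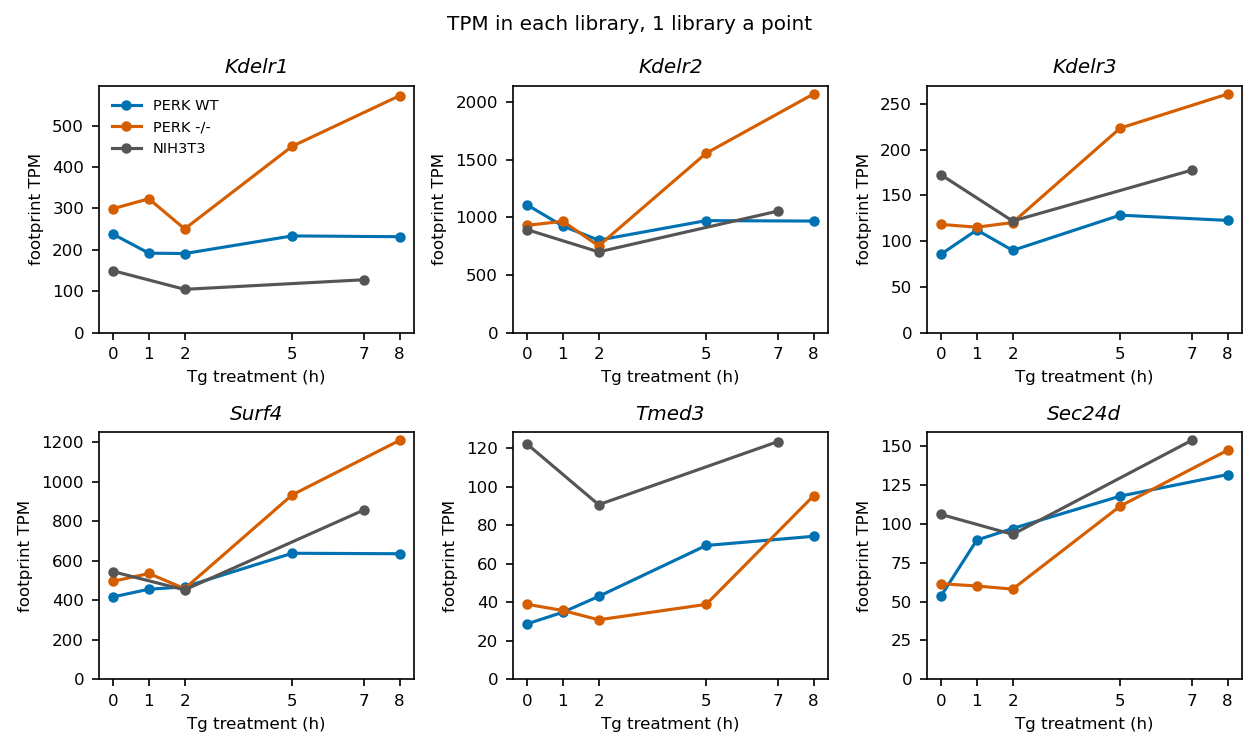
Footprint TPM (y axis, from 0) against hours of Tg (x axis) of the 3 KDEL receptors, Surf4, Tmed3 and Sec24d, 1 library per point, with PERK WT in blue, PERK -/- in orange and NIH3T3 in grey. Kdelr1 and Kdelr2 lie further apart between the genotypes at 5 and 8 h than before, reaching 572 and 2073 TPM in PERK -/- cells at 8 h against 232 and 969 TPM in PERK WT cells, while Sec24d reaches a like level in both.

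Cargo receptors as a group were near or under the median gene in PERK WT cells, with medians of -0.27, -0.26, -0.04 and -0.05 (95% interval -0.18 to 0.88). The medians in PERK -/- cells were -0.12, -0.15, 0.10 and 0.45 (95% interval 0.26 to 0.97). All 13 lay above their untreated level at 8 h there, as did 5599 of 10432 analysed genes. NIH3T3 medians were -0.40 (95% interval -0.56 to -0.27) and 0.10, with 1 of 13 above the untreated level at 2 h. Of all analysed genes, 3548 of 10117 lay above it in that comparison. In the late PERK WT libraries the group split into a few strongly higher genes and a larger part nearer the untreated level.

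Surf4, a receptor for soluble cargo that lies on chromosome 2, 26920040 to 26933928 (GRCm38), stood at 417 TPM untreated and 456, 468, 638 and 636 TPM after 1, 2, 5 and 8 h in PERK WT, at 496 TPM untreated and 536, 459, 934 and 1211 TPM after 1, 2, 5 and 8 h in PERK -/- and at 545 TPM untreated and 452 and 858 TPM after 2 and 7 h in NIH3T3 cells. All 3 series were higher at their last time, by 0.61 [0.59 to 0.71], 1.29 [1.18 to 1.32] and 0.66 [0.56 to 0.68]. Mcfd2 is the soluble partner of Lman1 in carrying blood clotting factors. It stood at 94.8 TPM untreated and 103, 137, 171 and 175 TPM after 1, 2, 5 and 8 h in PERK WT and at 69.1 TPM untreated and 80.2, 75.4, 148 and 135 TPM after 1, 2, 5 and 8 h in PERK -/- cells, and the 5 h changes were 0.85 [0.63 to 1.04] and 1.10 [0.80 to 1.30]. Lman1 itself (ERGIC-53) differed by only -0.06 [-0.12 to 0.01] and 0.02 [-0.06 to 0.09] at 8 h, and by -0.19 [-0.28 to -0.10] against 0.40 [0.22 to 0.58] for Mcfd2 in NIH3T3 cells at 7 h. The 2 genes of this receptor pair thus had unlike changes in each series. Lman2 (VIP36) stood at 159 TPM untreated and 148, 169, 209 and 232 TPM after 1, 2, 5 and 8 h in PERK WT and at 197 TPM untreated and 127, 116, 199.5 and 269 TPM after 1, 2, 5 and 8 h in PERK -/- cells, where the 1 and 2 h libraries were low (-0.77 [-0.79 to -0.59] at 2 h) and the 8 h library high.

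The p24 proteins work as heteromers with a member of each of the α, β, γ and δ families. Tmed3 (γ) stood at 28.7 TPM untreated and 34.7, 42.97, 69.4 and 74.2 TPM after 1, 2, 5 and 8 h in PERK WT, at 38.9 TPM untreated and 35.6, 30.8, 38.8 and 95.3 TPM after 1, 2, 5 and 8 h in PERK -/- and at 122 TPM untreated and 90.6 and 123 TPM after 2 and 7 h in NIH3T3 cells. Tmed3 in PERK -/- cells was at or below its untreated level until 5 h and higher in the 8 h library alone, by 1.29 [1.02 to 1.55], while in PERK WT cells the 5 h and 8 h changes were 1.28 [1.00 to 1.54] and 1.37 [1.14 to 1.61]. Tmed9 (α) stood at 299 TPM untreated and 386, 425, 532 and 559 TPM after 1, 2, 5 and 8 h in PERK WT and at 400.3 TPM untreated and 303, 299, 483 and 619 TPM after 1, 2, 5 and 8 h in PERK -/- cells, above the untreated level at every time in the former and below it at 1 and 2 h in the latter. Tmed2 (β) and Tmed10 (δ) differed by -0.05 and 0.01 in PERK WT and by 0.66 and 0.29 in PERK -/- cells at 8 h. Tmed7 (γ) differed by -0.08 and 0.40.

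Tmed5 (γ) stood at 195 TPM untreated and 162, 125, 166 and 162 TPM after 1, 2, 5 and 8 h in PERK WT, at 222 TPM untreated and 246, 241, 278 and 265 TPM after 1, 2, 5 and 8 h in PERK -/- and at 112 TPM untreated and 137 and 243 TPM after 2 and 7 h in NIH3T3 cells. It lay below its untreated level in all 4 treated PERK WT libraries and above it in all 4 treated PERK -/- and both treated NIH3T3 libraries. The 7 h change in NIH3T3 cells was 1.12 [0.58 to 0.86], larger in TPM than in counts. The Ergic proteins cycle between the ER and the Golgi as a complex. Ergic1 and Ergic2 differed by -0.18 [-0.31 to -0.04] and -0.50 [-0.91 to -0.53] in PERK WT and by 0.45 [0.36 to 0.67] and 0.27 [0.17 to 0.58] in PERK -/- cells at 8 h, and Ergic3 by -0.08 and 0.08. In NIH3T3 cells Ergic1 was lower at both times, by -0.69 and -0.63.

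Among the 4 SNAREs, Stx5a, the Golgi syntaxin that receives vesicles from the ER, had the highest change of any member in any comparison. It stood at 25.5 TPM untreated and 43.8, 55.5, 63.9 and 70.7 TPM after 1, 2, 5 and 8 h in PERK WT, at 37.8 TPM untreated and 36.4, 31.3, 73.3 and 69.3 TPM after 1, 2, 5 and 8 h in PERK -/- and at 32.4 TPM untreated and 38.2 and 48.6 TPM after 2 and 7 h in NIH3T3 cells. PERK WT cells were higher at 1 h already (0.78 [0.52 to 1.07]) and reached 1.47 [1.28 to 1.66] at 8 h, whereas PERK -/- cells were below their untreated level at 1 and 2 h and reached 0.87 [0.65 to 1.08] at 8 h. Its partners differed less from their untreated levels in PERK WT cells. Gosr2 (membrin) stood at 44.03 TPM untreated and 39.05, 58.5, 65.9 and 64.8 TPM after 1, 2, 5 and 8 h in PERK WT and at 61.9 TPM untreated and 33.5, 51.9, 54.4 and 56.2 TPM after 1, 2, 5 and 8 h in PERK -/- cells, where the 1 h library was low (-0.89 [-1.04 to -0.48]). Sec22b stayed between -0.26 and 0.37 in all 10 comparisons. Bet1 stood at 24.3 TPM untreated and 29.4, 25.9, 35.8 and 29.1 TPM after 1, 2, 5 and 8 h in PERK WT and at 29.3 TPM untreated and 38.04, 46.3, 47.5 and 48.8 TPM after 1, 2, 5 and 8 h in PERK -/- cells, on as few as 19 counts, and had a change of -0.57 [-0.92 to -0.23] in NIH3T3 cells at 7 h, just short of 1.5-fold.

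**Figure D4:**
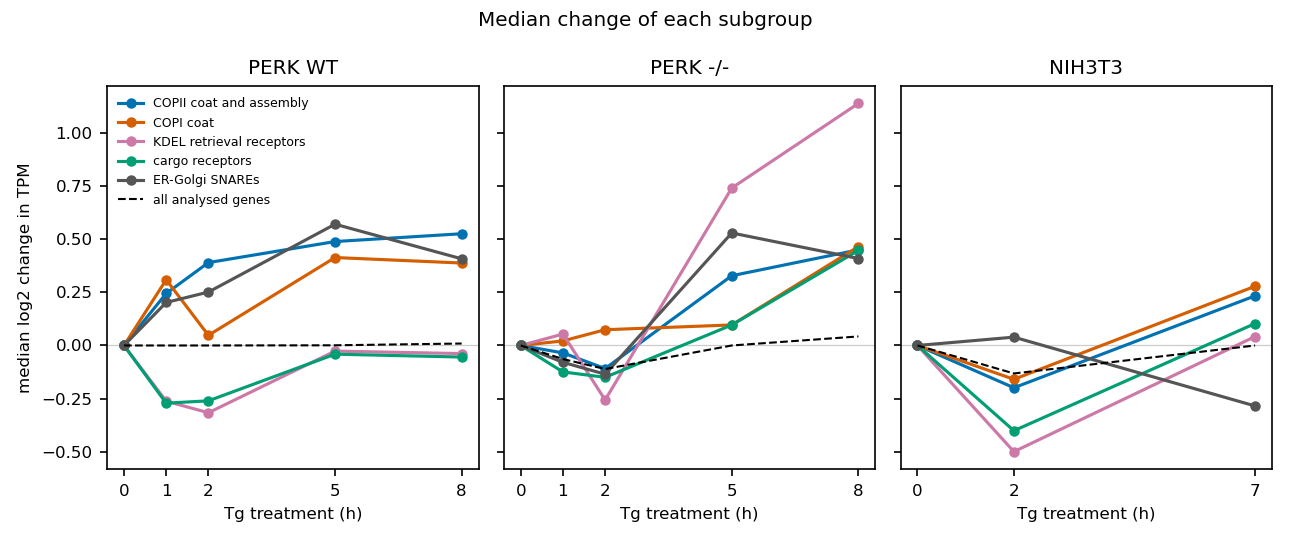
Median log2 change in TPM (y axis) of the 5 subgroups and of all analysed genes (dashed) against hours of Tg (x axis) in PERK WT, PERK -/- and NIH3T3 libraries. The KDEL receptors reach 1.14 in PERK -/- cells and stay at -0.04 in PERK WT cells at 8 h, and the cargo receptors stay near 0 in late PERK WT libraries.

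The genotype difference was taken as the PERK -/- change minus the PERK WT change at the same time. Over the 42 members its median was -0.15, -0.18, 0.00 and 0.17 at 1, 2, 5 and 8 h (interval at the last of these -0.04 to 0.37), against -0.09, -0.19, -0.04 and 0.00 for all analysed genes. That interval spans the median of all genes. At 8 h the subgroup medians were 0.97 for the KDEL receptors (range 0.62 to 1.35), 0.28 for cargo receptors, 0.17 for COPI, -0.04 for COPII and -0.23 for SNAREs. The 8 members furthest to the side of PERK -/- cells were Kdelr2 (1.35), Kdelr1 (0.97), Ergic2 (0.78), Tmed2 (0.72), Surf4 (0.68), Mia3 (0.65), Ergic1 (0.63) and Kdelr3 (0.62). The 4 furthest to the side of PERK WT cells were Stx5a (-0.60), Gosr2 (-0.70), Sec16a (-0.57) and Cope (-0.53). Each difference also rests on the 1 untreated library of each genotype. Stx5a stood at 70.7 TPM in PERK WT and 69.3 TPM in PERK -/- cells at 8 h, but at 25.5 and 37.8 TPM untreated. Sec16a likewise had 16.4 and 16.8 TPM at 8 h, but 8.12 and 12.3 TPM untreated.

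Untreated PERK -/- cells had somewhat more footprints on these genes than untreated PERK WT cells, with a median log2 ratio of 0.24 over the 42 members against 0.08 over all genes, and a range from -0.46 (Mcfd2) to 0.71 (Copz2). With no replicates, the nearest yardstick is 2 libraries of neighbouring times. The SD over members of the log2 ratio was 0.10 between the 8 and 5 h PERK WT libraries and 0.26 between the 2 and 1 h libraries. In PERK -/- cells it was 0.21 between 2 and 1 h but 0.35 between 8 and 5 h, from -0.31 (Sar1b) to 1.47 (Copg2). The KDEL receptors and Surf4 were higher in both late PERK -/- libraries, whereas the changes of Tmed3 and Copg2 rest on 1 of them.

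**Figure D5:**
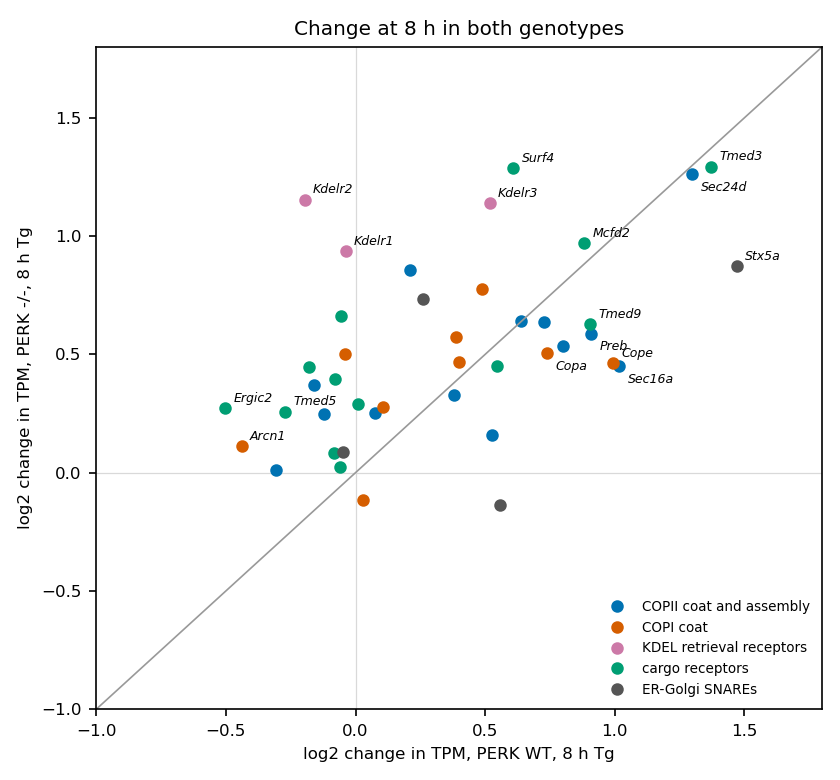
Log2 change in TPM after 8 h of Tg in PERK WT (x axis) and PERK -/- cells (y axis) for the 42 members, coloured by subgroup, with the line of equal change in grey. Kdelr2 (-0.20 and 1.15) and Kdelr1 lie far above the line, Sec24d and Tmed3 lie near it, and Stx5a (1.47 and 0.87) lies below it.

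Coding GC content moved with the changes in PERK WT cells and, with the opposite sign, in early PERK -/- cells. Over the 42 members, whose coding GC ran from 38.4% (Bet1) to 59.03% (Lman2), Spearman's rho between GC and change was 0.26, 0.45, 0.49 and 0.53 in PERK WT cells and -0.56, -0.70, -0.18 and 0.20 in PERK -/- cells at 1, 2, 5 and 8 h. Its values over the members in NIH3T3 cells at 2 and 7 h were -0.26 and -0.06. Over all analysed genes with a coding sequence it was 0.24, 0.36, 0.41 and 0.46 in PERK WT, -0.37, -0.47, -0.08 and -0.02 in PERK -/- and -0.10 and -0.06 in NIH3T3 cells. Each of these values is across genes that share the same 2 libraries. Cope and Arcn1, whose changes parted in PERK WT cells, have 58.3% and 44.2% GC, and Sec24d, Stx5a and Kdelr2 have 53.3%, 52.1% and 51.3%. With the GC trend of all genes removed, the member medians at 8 h were 0.31 in PERK WT and 0.40 in PERK -/- cells. The part of GC content in single changes was not tested.

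The 6 genes with the promoter core had a median change of 0.58 in PERK WT and 0.76 in PERK -/- cells at 8 h and of 0.56 in NIH3T3 cells at 7 h. The other 31 members with a listed promoter had 0.38, 0.45 and 0.12. At least 1.5-fold higher were 3, 4 and 1 of the 6 in these comparisons, and 10, 10 and 5 of the 31. The shares of all genes were 17.8%, 12.5% and 16.7%. In NIH3T3 cells the counts with and without the core thus did not part as the medians did. The 6 ran from 0.11 (Copb2) to 1.47 (Stx5a) in PERK WT cells at 8 h. Surf4, Tmed3 and Mcfd2 were among the strongly higher members without it. The split by the shorter ACGTG had no single direction. The 24 members with it had medians of 0.52, 0.46 and 0.13 in the same 3 comparisons, and the 13 without it -0.04, 0.50 and 0.23. The part of either element in the changes was not tested.

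Genes around the 42 gave the setting. Of 73 further genes of the same routes (other p24 and lectin receptors, other COPII factors, the Arf1 cycle, tethers and Rab GTPases, other SNAREs and their regulators, and the CREB3 factors), 67 passed the TPM limit in MEFs. At 8 h 16 of them were higher and 4 lower in PERK WT cells, and 18 higher and 1 lower in PERK -/- cells, with medians of 0.28 and 0.47. The shares higher, 23.9% and 26.9%, stand beside 17.8% and 12.5% of all genes. In NIH3T3 cells at 7 h 16 of 68 were higher and 10 lower, which is 23.5% and 14.7% beside 16.7% and 20.1% of all genes. Their late medians were close to those of the 42 members.

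The Arf1 cycle drives COPI, and all 9 of its listed genes lay above their untreated level in PERK WT cells at 8 h. So did 5261 of 10432 analysed genes. Arfgap3, which ends the GTP cycle of Arf1 on COPI vesicles, stood at 15.5 TPM untreated and 28.1, 33.3, 48.8 and 48 TPM after 1, 2, 5 and 8 h in PERK WT, at 25.6 TPM untreated and 23.5, 20.6, 59.5 and 39.9 TPM after 1, 2, 5 and 8 h in PERK -/- and at 52.8 TPM untreated and 47.6 and 91.7 TPM after 2 and 7 h in NIH3T3 cells. Arf5 was lower in NIH3T3 cells at 7 h (-1.19 [-1.35 to -1.03]) and differed by 0.16 in PERK WT cells at 8 h. Creb3 and Creb3l2 encode ER-bound factors that are known to regulate secretory genes, Creb3l2 being linked to COPII genes in cartilage. Creb3 stood at 39.7 TPM untreated and 80.8, 86.7, 102 and 92.2 TPM after 1, 2, 5 and 8 h in PERK WT and at 50.8 TPM untreated and 43.2, 42.3, 61.7 and 81.9 TPM after 1, 2, 5 and 8 h in PERK -/- cells. Creb3l2 stood at 25.3 TPM untreated and 38.4, 48.4, 61.7 and 49.7 TPM after 1, 2, 5 and 8 h in PERK WT and at 25.1 TPM untreated and 27.3, 23.2, 52.02 and 63.2 TPM after 1, 2, 5 and 8 h in PERK -/- cells. Both were at least 1.5-fold higher at every time in PERK WT cells, whereas in PERK -/- cells Creb3l2 passed that fold at 5 and 8 h and Creb3 at 8 h. The lowest of the 3 CREB3 factors analysed differed by -0.62, -0.16, 0.17 and 0.28 in PERK WT cells at 1, 2, 5 and 8 h. Creb3l1 was lower in NIH3T3 cells, from 25.6 to 9.79 TPM at 7 h.

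Among tethers, Trappc1, a small subunit of the TRAPP complex, was lower in PERK WT cells from 2 h on (-1.47 [-1.75 to -1.19] at 8 h) and in NIH3T3 cells at 7 h (-1.32 [-1.58 to -1.08]), and differed by 0.13 [-0.08 to 0.34] in PERK -/- cells at 8 h. Gorasp1, the Golgi stacking protein GRASP65, was higher in NIH3T3 cells at 7 h (1.17 [0.90 to 1.44]). Rint1, Nbas and Scfd1, listed with the other SNAREs as regulators, tether and regulate vesicles returning to the ER or arriving at the Golgi. They differed by 1.15, 1.15 and 1.10 in NIH3T3 cells at 7 h, and by 0.74, 1.01 and 0.47 in PERK WT cells at 8 h. Cnih4, a cargo receptor of the cornichon family, was highest in the 5 and 8 h libraries of PERK -/- cells, as were the KDEL receptors. It lay above its untreated level at 1 and 2 h too, with 257 TPM untreated and 333, 296, 461 and 539 TPM after 1, 2, 5 and 8 h. In PERK WT cells it stood at 378 TPM untreated and 311, 319, 303 and 308 TPM after 1, 2, 5 and 8 h.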

How the data were processed

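Ribosome footprint libraries of 13 samples were analysed, 1 per condition. The authors mapped footprints to the mouse genome (mm10) and estimated gene levels with RSEM. The deposited tables hold, per gene and sample, expected counts and TPM. All 13 columns were matched to samples by their titles. RSEM shares out reads that fit several transcripts, so levels of paralogs (Sec23, Sec24, Sar1, Copg, Copz, Kdelr, Tmed) and of overlapping genes carry that uncertainty.

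From the deposited TPM, log2 changes were taken between each Tg library and the untreated library of the same cells, with values under 4 TPM raised to 4 and a mean TPM of at least 2 required. From the deposited expected counts, 95% exact conditional (Clopper-Pearson) intervals were taken on rounded counts. They cover counting error only. Intervals of list medians are binomial order-statistic intervals, which treat genes as independent, or the range for fewer than 6 genes. With 1 library per condition no test was run. Total counts were 2525029 to 14799515, so low genes such as Bet1 and Copz2 have wide intervals.

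Members and lists were chosen with earlier results of these data known. Values by library, not always for every series, were given for up to 4 members per subgroup with the largest change. These were taken among members differing at least 1.5-fold on at least 100 counts in both libraries. The paralog families were given as well, and genes outside the members were named at 2-fold, up to 3 a list. Mia3, Arcn1, Tmed9, Lman2, Bet1, Creb3l1 and the partners set beside a named gene were added after their values were seen. Alternatives were another floor, a pseudocount of 1, other filters, TMM (edgeR 4.0.16) or DESeq2 1.42.0 factors, counts per total, thinned counts, removal of the GC trend (lowess, 30% of genes) and a 2-fold threshold. The interval script was tested on simulated data. Coding GC and gene positions came from GENCODE M21 (GRCm38) and promoters from RefSeq (GRCm38.p6). Work was done in Python 3.11.15 and R 4.3.3.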

Additional observations from a re-analysis of the deposited data

Results flagged for a closer look

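With 1 library per condition, no group could be searched for a sample far from the others. Members whose changes had opposite signs in PERK WT and PERK -/- cells, with both counting intervals leaving out 0, were 10 of 42 at 1 h (23.8%, against 15.6% of all analysed genes) and 11 at 2 h (26.2% against 19.6%). The later libraries gave 5 such members at 5 h (11.9% against 13.2%) and 6 at 8 h (14.3% against 11.4%). By sign alone they were 22, 23, 17 and 17. Of those with both intervals leaving out 0, Sec16a and Cope at 2 h and Kdelr2 at 8 h lay at least 2-fold apart, where 10.7% of all genes met the same rule at 2 h and 4.90% at 8 h, so such members were no more frequent than other genes. Sec16a at 2 h had a PERK -/- change minus PERK WT change of -1.39 on the log2 scale. Cope at 2 h had a difference of -1.08 in the same direction. Kdelr2 at 8 h had a difference of 1.35 in the other direction. Copz2 at 1 h (-1.05), Stx5a at 2 h (-1.39) and Tmed3 at 5 h (-1.28) also had opposite signs and lay over 2-fold apart, with an interval that spanned 0 in at least 1 genotype. Each compares 4 libraries, and the difference itself was not tested.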

How the results depend on the processing

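Another floor, a pseudocount of 1 with no floor and other filters on mean TPM left each median within its spread and each count of members within 1.5 times, and the median genotype differences of the members kept to theirs under each of the 9 alternatives. At a 2-fold threshold, the members higher were 0, 1, 4 and 4 in PERK WT cells at 1, 2, 5 and 8 h, 0, 1 and 5 in PERK -/- cells at 2, 5 and 8 h, and 3 in NIH3T3 cells at 7 h, and 0 were lower wherever some had been. The shares of all genes at least 2-fold higher in those comparisons were 4.33, 5.66, 5.86 and 6.45%, 0.623, 3.26 and 3.28%, and 7.01%. TMM factors gave 3 higher and 3 lower members in PERK WT cells at 2 h and DESeq2 factors 3 and 2, and thinned counts gave 2 lower. At 8 h TMM, DESeq2, library totals and thinned counts each put 1 member lower in place of 0. Removing the GC trend left 0 members lower in PERK WT cells at 5 h, 1 lower in PERK -/- cells at 1 h, 0 higher and 0 lower there at 2 h, and 0 lower in NIH3T3 cells at 2 h. In PERK -/- cells at 1 h TMM and DESeq2 each gave 1 higher member and thinned counts gave 2 higher and 1 lower. At 2 h TMM and DESeq2 gave 3 higher and library totals 2, with 0 lower under DESeq2, and at 5 h thinned counts gave 2 lower. At 8 h TMM and DESeq2 gave 10 higher in place of 16. In NIH3T3 cells TMM and DESeq2 gave 0 lower at 2 h, and 11 higher and 1 lower at 7 h. Under TMM and DESeq2 the medians in PERK -/- cells at 1 h were 0.0898 and 0.0893 for COPII and 0.16 and 0.16 for the KDEL receptors, which stood at 0.13 without the GC trend. At 2 h they were 0.0589 and 0.0743 for the 42 members (0.0115 thinned), 0.0606 and 0.0760 for COPII (0.0333 thinned) and 0.24 and 0.26 for COPI. In NIH3T3 cells at 2 h the member median was -0.0599 and -0.0439 under TMM and DESeq2, -0.10 by library totals, -0.12 thinned and -0.0913 without the GC trend. COPI there turned to 0.00527 and 0.0213 under TMM and DESeq2, and was -0.0391 by library totals, -0.0446 thinned and -0.0561 without the GC trend. COPII was -0.0227 under DESeq2, the KDEL receptors were -0.33, -0.32 and -0.28 and the cargo receptors -0.24, -0.22 and -0.25 under TMM, DESeq2 and thinned counts, and the cargo receptors -0.22 without the GC trend. The cause of these shifts was not tested.

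TPM and count changes parted by more than 0.15 (log2) in 16 of 420 values, in Sec24a, Copg1, Tmed5 and Ergic2. Genes under 100 counts (Bet1, Copz2, Tmed3 and others in shallow libraries) carry wide counting intervals. No paired analysis was possible because each condition is 1 library and the labels give no replicate numbers.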
